A study of Mus musculus with 6 samples.

Results

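The genes described here build the light-sensing outer segment of photoreceptors and the cilium that carries it. They are 42 genes fixed by name, covering outer segment discs, the photoreceptor axoneme, the connecting cilium and its nephronophthisis proteins, the Bardet-Biedl syndrome (BBS) genes, the pathway for lipid-modified cargo, intraflagellar transport (IFT) and kinesin motors. The rule uses the names alone, and the set was drawn up with earlier results of these data known. All 42 were found among the 21995 gene rows of the table, and 41 reached an average of 0.5 FPKM across the libraries and were tested, out of 13175 rows tested. FPKM corrects the fragments counted on each gene for gene length and for library size, so levels of different genes can be set beside each other. Kif17 was the member below that level.

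The outer segment is a modified primary cilium packed with membrane discs, on which the proteins of phototransduction sit. It holds no ribosomes, so every protein it contains is made in the inner segment and passes through the connecting cilium, the counterpart of the transition zone of other cilia. IFT trains drawn by kinesin and dynein motors move cargo along the axoneme, the BBSome works as an adaptor on these trains, and a separate pathway built on the small GTPase ARL3 delivers proteins that carry a lipid anchor. In the mouse, discs begin to assemble about the end of the first postnatal week. Mutations in many of these genes cause retinitis pigmentosa, Leber congenital amaurosis or syndromes that also affect kidney and brain.

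RNA was sequenced from retinas of mice at postnatal day 6 (P6), with 3 Lhx4 null and 3 control libraries, each from the retinas of 1 mouse on a mixed C57BL/6J; 129S6 background, after removal of the pigment epithelium. LHX4 is a LIM-homeodomain factor that bipolar cells use in their development, and the question was which transcripts differ in its absence. The study also cites earlier work that found Lhx4 expressed in cone photoreceptors. In adult null mice it reports a smaller photoreceptor response (a-wave) in the electroretinogram, with no significant change in cone numbers. The study gives its null mice as Lhx4 tdT/loxP; Six3-Cre, that is, one Lhx4 allele held a tdTomato insertion and the other was flanked by loxP sites, to be deleted by Six3-Cre in the developing retina. The labels give the other group only as control. For other experiments the study names as controls wild-type or Lhx4 loxP/+ mice, and in tdTomato counts Lhx4 tdT/+ or tdT/loxP mice, but which of these gave the control libraries is not stated in the sources used here. Lhx4 itself stood at 28.25, 28.25 and 25.8 FPKM in null-labelled retinas, against 18.0, 18.1 and 19.3 FPKM in controls, higher without overlap in the libraries labelled null (log2 difference 0.56, SE 0.0847, limma BH-adjusted p 0.336). FPKM per gene does not separate the deleted part from the rest, so this value does not check the labels, and the group is called null-labelled below. Grik1, a glutamate receptor gene of OFF bipolar cells, stood at 5.06, 4.68 and 3.19 FPKM in null-labelled retinas, against 19.9, 15.7 and 6.14 FPKM in controls, without overlap (log2 difference -1.45, SE 0.395, limma BH-adjusted p 0.661, and 0.0571 with a block for the library number). Arr3, the cone arrestin, was at 7.19, 5.26 and 3.56 FPKM in null-labelled retinas, against 21.01, 16.4 and 8.63 FPKM in controls (log2 difference -1.40, SE 0.344, limma BH-adjusted p 0.661, and 0.0104 with the block). Both genes were picked after their values were seen, from marker lists that were mixed. Of the 10 bipolar cell markers 7 were lower and 3 higher. Of the 9 tested cone markers 2 were lower and 7 higher. Opn1sw, the S-opsin gene, stood at 199.8, 190.4 and 183.2 FPKM in null-labelled retinas, against 107.9, 126.5 and 120.5 FPKM in controls, without overlap.

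Summed FPKM ranged from 386567 to 429668 per library and the number of reads behind a value is not known, so precision rests on the spread between animals. Both libraries numbered 3 stood apart from the other 4. In both groups, all 13 rod markers were lower in retina 3 than in both other retinas, beside 25.2% of all rows. The medians were -0.78 in null-labelled retina 3 and -1.41 in control retina 3 on the log2 scale. All 10 progenitor and cell cycle markers were higher in both, by medians of 1.36 and 1.33, beside 25.9% of all rows. These marker lists were chosen with earlier results of these data known. In RNA from whole retina, fewer cells of a type and less RNA per cell cannot be told apart. Mki67, a marker of cycling cells, was at 4.45, 4.24 and 11.5 FPKM in null-labelled retinas, against 3.60, 5.25 and 12.25 FPKM in controls, in the order of the library numbers 1 to 3, which is kept below. Photoreceptor regulators were abundant in every library, with Crx, the photoreceptor homeobox factor, at 412 to 545 FPKM and Nrl, the rod-determining factor, at 461 to 663.5 FPKM. The 8 pigment epithelium markers summed to 9.23, 10.15 and 28.15 FPKM in null-labelled retinas, against 9.69, 20.9 and 26.6 FPKM in controls, so the sum was highest in the libraries numbered 3. Ttr, at 3.75 to 18.5 FPKM, made up much of it, and Pmel and Dct were between 1.46 and 4.80 FPKM, while Rpe65, the retinoid isomerase of these cells, was at or below 0.107 FPKM in every library. The 10 matched markers of motile-ciliated cells summed to 20.95, 22.7 and 21.4 FPKM in null-labelled retinas, against 23.7, 22.1 and 21.7 FPKM in controls, mostly from Ccdc39 (10.2 to 14.4 FPKM) and Foxj1 (3.38 to 4.46 FPKM), with Hydin, Dnah5 and Rsph4a at or below 0.107 FPKM. The part of these cells in the members' values was not tested. Both groups also held 1 library, number 2, with the Y-linked gene Ddx3y at most at 0.0284 FPKM, against at least 19.2 FPKM in the others.

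Short promoter stretches are shown because 2 transcription factor families bear on these genes. CRX drives photoreceptor genes, and RFX factors drive genes of ciliogenesis. RefSeq promoter windows on GRCm38.p6, reaching from 250 bases before to 50 bases after a gene's start, were found for 38 of the 42 members, with none matched for Rp1, Rp1l1, Reep6 and Tmem67. They were searched on both strands for the CRX core TAATCC, which reads GGATTA on the other strand, and the RFX half-site GTTGCC, which reads GGCAAC, and matches of both kinds did not overlap. The CRX core occurred in the windows of 3 of the 38 members (7.89%), beside 8.14% of the 27025 genes with a window. These were Unc119, Rpgrip1 and Bbs1. The stretch of Unc119 lies at chr11:78345439-78345498 on the plus strand, at a start inside the annotated gene. That of Rpgrip1 lies at chr14:52110863-52110892 on the plus strand, also inside the annotated gene and overlapping an exon of it. That of Bbs1 lies at chr19:4906792-4906851 on the minus strand. The core is printed in capitals.
Unc119: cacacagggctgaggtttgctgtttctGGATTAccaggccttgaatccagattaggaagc
Rpgrip1: gctaaaaggcctGGATTAgtgtctcctcta
Bbs1: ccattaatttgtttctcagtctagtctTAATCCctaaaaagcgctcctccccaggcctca
The RFX half-site occurred in 13 of the 38 (34.2%), beside 14.1% of all genes with a window. It was in none of the 6 disc and axoneme members with a window and in 13 of the other 32 (40.6%). Ift172 and Kif3a are printed as the IFT and kinesin members whose groups did not overlap, with Ift140, of the other IFT complex, and Bbs7, a BBSome subunit, at chr5:31291097-31291126 (minus strand), chr11:53567259-53567288 (plus), chr17:25015950-25016009 (plus) and chr3:36613478-36613537 (minus), with the half-site in capitals.
Ift172: tgtcgcactcacGTTGCCtgtgcgtcagcg
Kif3a: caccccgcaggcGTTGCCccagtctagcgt
Ift140: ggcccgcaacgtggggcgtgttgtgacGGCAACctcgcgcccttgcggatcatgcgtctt
Bbs7: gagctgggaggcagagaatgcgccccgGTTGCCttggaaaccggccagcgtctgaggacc
The printed stretch of Ift172 overlaps an annotated exon of Ift172, and that of Kif3a an exon of A430108G06Rik. A match of 6 letters is a description of these windows and does not show that a factor binds there.

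Levels of the members spanned a wide range. The median member had a mean of 23.7 FPKM over the 6 libraries, with a lowest tested mean of 3.00 FPKM for Bbs10 and a highest of 436 FPKM for Unc119. Unc119, Rom1, Tulp1, Prph2 and Rpgrip1 lay above the 98th percentile of all tested rows, at means of 436, 381, 368, 296 and 273 FPKM. All of the 4 disc members had means of 130 FPKM or more. General cilium genes were lower, with BBSome subunits at means of 14.2 to 39.8 FPKM, IFT proteins at 8.54 to 60.9 FPKM and 10 of the 11 connecting cilium members at 7.50 to 39.5 FPKM. Rpgrip1 was the exception in the last group, at 10.7 to 18.9 times the FPKM of its binding partner Rpgr within a library.

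**Figure D1:**
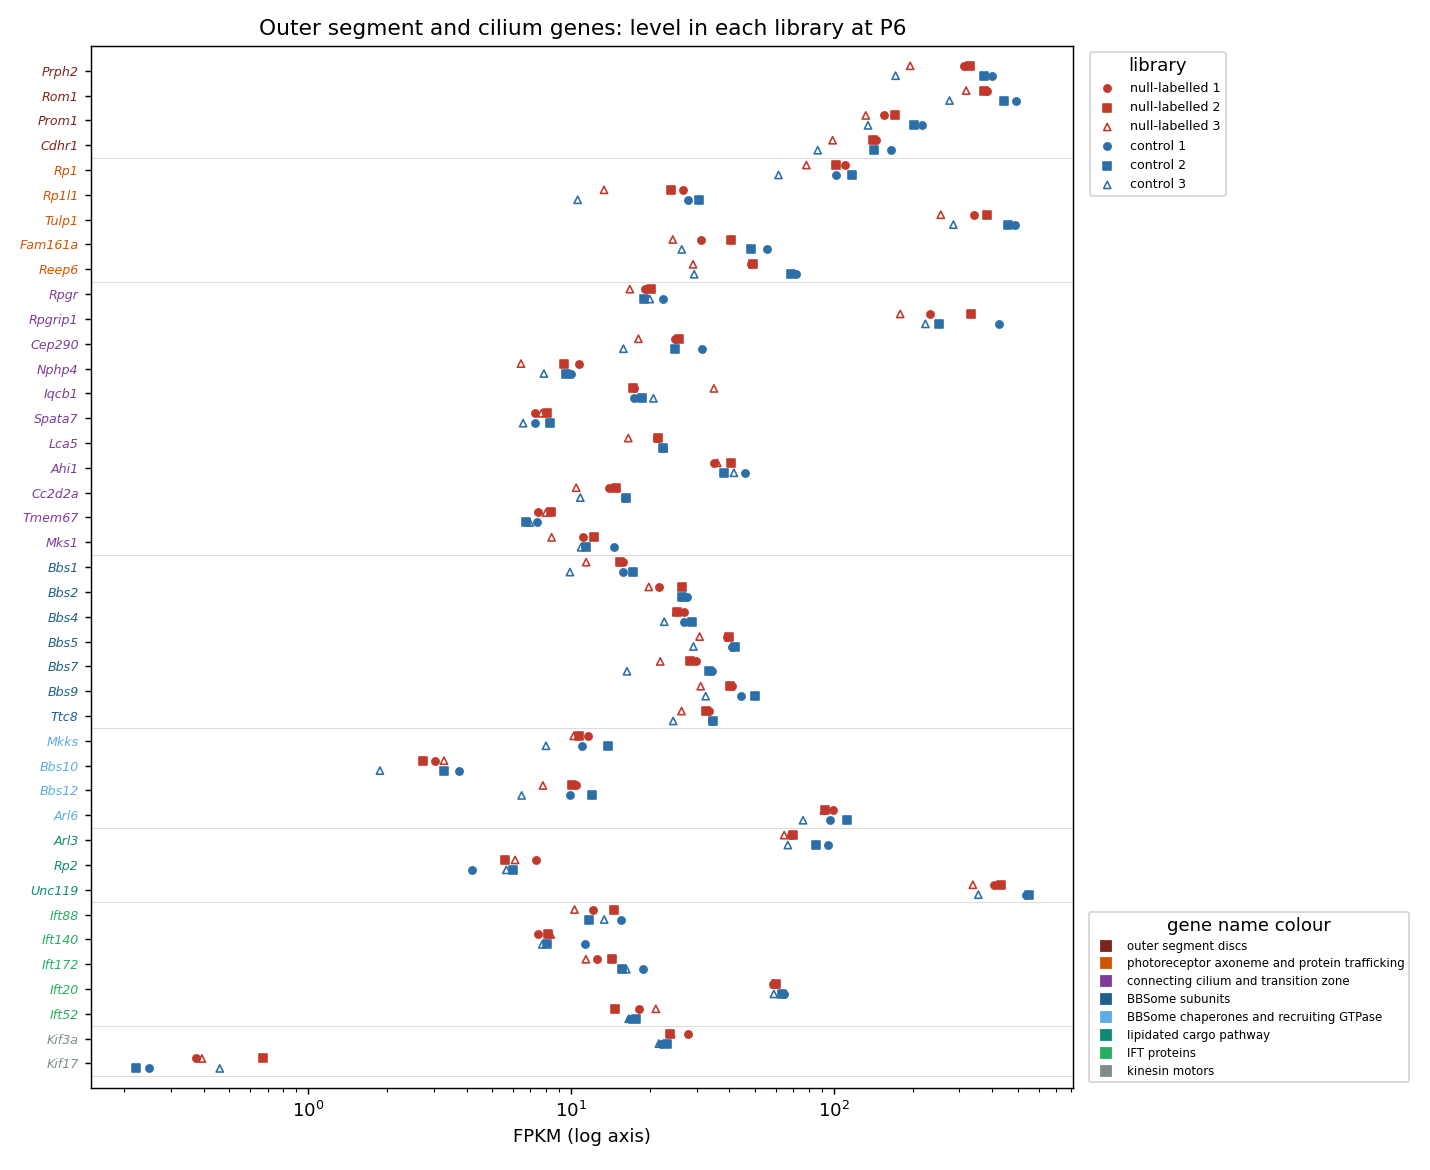
FPKM of the members but 1 (log axis) in each library at P6, with null-labelled libraries in red above control libraries in blue, and open triangles for the libraries numbered 3. Disc, axoneme and lipidated cargo genes such as Unc119 (mean 436 FPKM) reached the highest levels, and for most of them the open triangles of both groups lie to the left of the other symbols.

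Between genotypes, no member passed the test. Expression was compared as log2(FPKM + 0.5) with limma, two-sided, with Benjamini-Hochberg (BH) adjustment over all 13175 rows, and on this scale the change of low genes is understated. The smallest adjusted p of a member was 0.661, and 2 of all tested rows (0.0152%) were called at an adjusted p under 0.05. At an unadjusted p under 0.05, 1 of 41 members was lower in null-labelled retinas (Ift172, 2.44%) beside 2.72% of all rows, and 0 were higher beside 4.09%. At a fold over 2 with an unadjusted limma p under 0.05, 0 members were called, beside 0.121% of all rows higher and 0.129% lower. In 2 members (4.88%) each null-labelled library lay above each control, beside 7.88% of all rows, and in 2 (4.88%) each lay below, beside 5.53%. These 4 were Tmem67 and Kif3a, higher, and Lca5 and Ift172, lower, with Tmem67 and Lca5 named after their values were seen.

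Libraries are numbered 1 to 3 in each group, and the model was also fitted with this number as a blocking factor. The labels do not say that libraries of the same number belong together. No member was called there either (smallest limma BH-adjusted p 0.312), beside 12 of all rows (0.0911%). At an unadjusted limma p under 0.05, 8 members were lower in null-labelled retinas, namely Prom1, Tulp1, Fam161a, Reep6, Bbs2, Arl3, Unc119 and Ift172, which is 19.5% of the members beside 5.21% of all rows, and 0 members were higher beside 6.96%. Leaving out both libraries numbered 3 gave 10 lower members (24.4%) beside 6.63% of all rows, and with the block as well 8 (19.5%) beside 4.11%. Leaving out control retina 3 alone gave 9 (22.0%) beside 4.65%, while leaving out any other single library gave 1 or 2. Weighting the libraries by their variability (array weights) gave 5 (12.2%) beside 6.51%. In these fits 0 members were higher, beside 4.32% of all rows without the libraries numbered 3, 3.04% with the block as well, 4.07% without control retina 3 and 6.22% with array weights. Over all 18 alternatives the smallest limma BH-adjusted p of a member was between 0.240 and 1.

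By the sign of the log2 difference, 29 members were lower and 12 higher in null-labelled retinas, 70.7% lower beside 49.1% of all rows. Of the 12, Bbs1, Mkks, Bbs12 and Arl6 had null-labelled FPKM means at 99.1% to 99.6% of the control means. The median log2 difference of the 41 was -0.063, beside 0.0033 over all rows, and the median member level varied by an SD of 0.17 between libraries of a group. That split depended on scaling and on single libraries. Rescaling every library to the same total left 21 members lower, the same 75th percentile 23 and quantile normalization 24. Without null-labelled retina 3, control retina 1 or control retina 2 there were 20, 17 and 20 lower members with medians of 0.0039, 0.026 and 0.014, and without control retina 3 there were 36 with a median of -0.22. The number with both libraries numbered 3 left out was 37, with a median of -0.14.

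**Figure D2:**
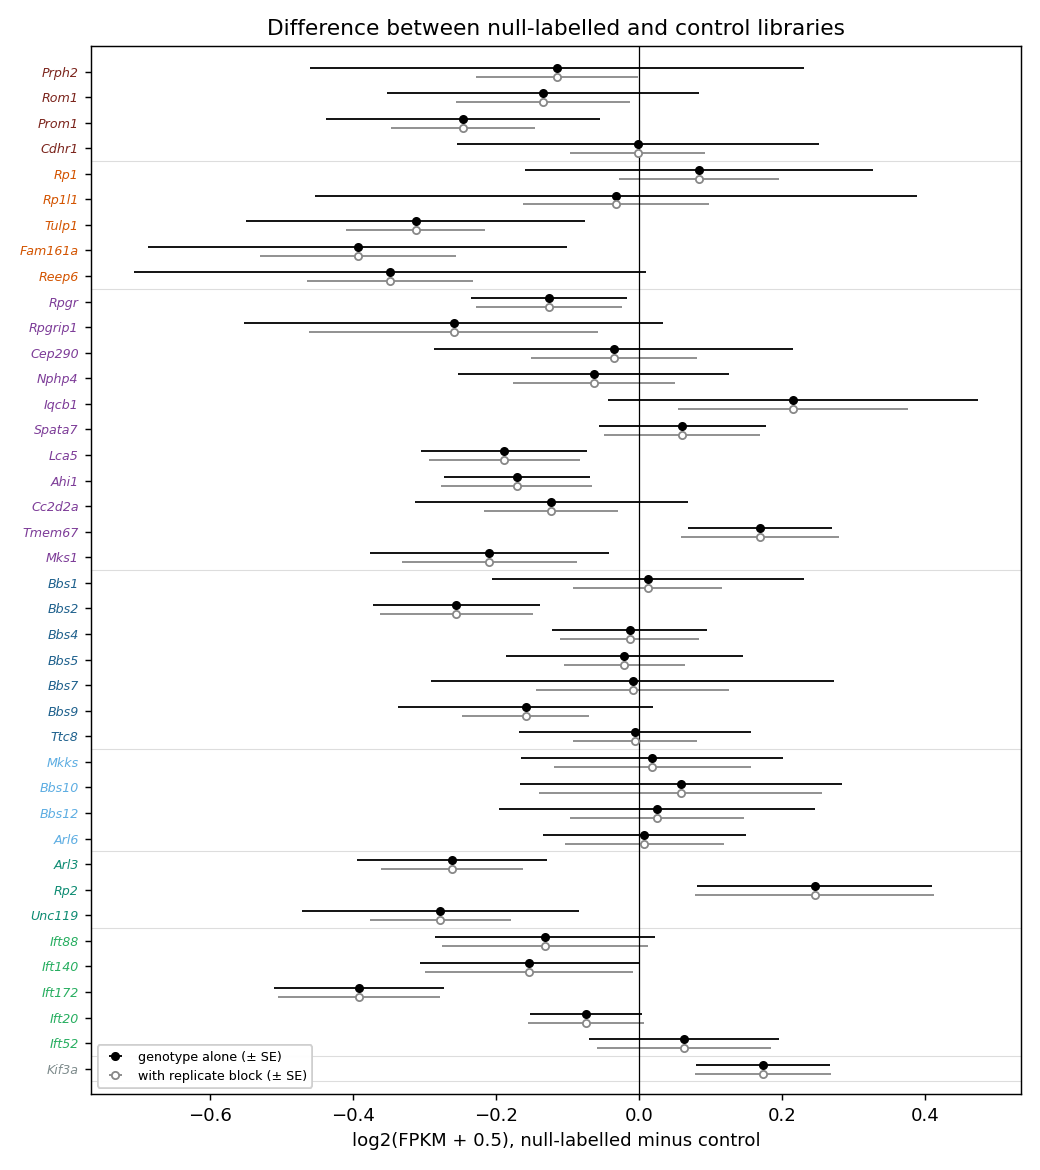
Difference in log2(FPKM + 0.5) of the tested members but 1, null-labelled minus control, with SE from limma for genotype alone (filled) and with the replicate number as a block (open). Most points lie left of 0, between -0.39 for Fam161a and 0.25 for Rp2, and the blocked errors are shorter for disc and axoneme genes.

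Outer segment disc genes were each lower on average in null-labelled retinas, at 83.0% to 97.8% of the control mean, with overlap between the groups in all 4. Prph2 encodes a tetraspanin of disc rims and lies at chromosome 17, 46910459 to 46924933 (GRCm38, plus strand). It stood at 311, 330.3 and 195 FPKM in null-labelled retinas, against 398, 372.5 and 171.5 FPKM in controls. Retinas 1 and 2 of the null-labelled group were below their control counterparts and retina 3 was above, and the log2 difference was -0.12 (SE 0.345, limma BH-adjusted p 0.966). Rom1, the partner of PRPH2 in the rim, stood at 382, 373.5 and 318 FPKM in null-labelled retinas, against 494, 442 and 275 FPKM in controls, with the same arrangement of the libraries and a difference of -0.13 (SE 0.218, limma BH-adjusted p 0.914). Control retina 3 was the lowest of all 6 for both genes. Prom1, a membrane protein of newly forming discs, stood at 156, 171 and 132 FPKM in null-labelled retinas, against 216, 201 and 135 FPKM in controls. It was lower in all 3 pairs, with a mean difference of -0.25 (limma p 0.236, and 0.0419 with the block, BH-adjusted 0.399), and overlaps the annotated genes Gm42716 and Gm16401. Cdhr1, a protocadherin at the edge of new discs, averaged 128 ± 25.6 FPKM in null-labelled retinas and 131 ± 40.2 FPKM in controls (SD, n = 3 each). Without both libraries numbered 3 the differences were -0.26 for Prph2, -0.31 for Rom1 and -0.35 for Prom1, with limma BH-adjusted p between 0.375 and 0.420, while without control retina 1 Prph2 and Rom1 were higher in the null-labelled group, by 0.10 and 0.033.

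Genes of the photoreceptor axoneme and of protein trafficking into the outer segment held 3 of the 8 members with an unadjusted p under 0.05 in the blocked fit. Tulp1, a tubby-like protein needed for protein transport to the outer segment, stood at 342, 380.5 and 255 FPKM in null-labelled retinas, against 487, 458 and 284 FPKM in controls (difference -0.31, SE 0.237, limma BH-adjusted p 0.813, and 0.329 with the block). Fam161a, a microtubule-binding protein of the connecting cilium, stood at 31.1, 40.7 and 24.4 FPKM in null-labelled retinas, against 55.5, 48.2 and 26.35 FPKM in controls and had the lowest difference of all members, -0.39 (SE 0.293, limma BH-adjusted p 0.810, and 0.363 with the block). Reep6, an endoplasmic reticulum protein of rods that acts in trafficking of guanylate cyclases, stood at 48.5, 49.0 and 29.1 FPKM in null-labelled retinas, against 71.4, 68.45 and 29.4 FPKM in controls. In all 3 genes the null-labelled retinas 1 and 2 lay below control retinas 1 and 2, and the retinas numbered 3 lay closer to each other, with pair 3 differences of -0.16, -0.11 and -0.014. For Reep6 the difference was -0.35 (SE 0.358) with all libraries and -0.52 (SE 0.071) without those numbered 3, at limma BH-adjusted p of 0.855 and 0.240. Rp1 and Rp1l1 are doublecortin-family proteins that bind the axoneme. Rp1 stood at 109.8, 101 and 78.45 FPKM in null-labelled retinas, against 102, 117 and 61.5 FPKM in controls (difference 0.083, SE 0.243, limma BH-adjusted p 0.965), with overlapping groups and a negative sign (-0.19) without control retina 3. Rp1l1 stood at 26.6, 24.1 and 13.3 FPKM in null-labelled retinas, against 27.9, 30.75 and 10.6 FPKM in controls, below the control counterpart in retinas 1 and 2 and above it in retina 3 (difference -0.032, SE 0.420, limma BH-adjusted p 0.997).

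Connecting cilium and transition zone genes gave 8 lower and 3 higher members, with no unadjusted p under 0.05 in either fit. Rpgr, the GTPase regulator behind most X-linked retinitis pigmentosa, stood at 19.1, 20.2 and 16.7 FPKM in null-labelled retinas, against 22.4, 18.9 and 19.9 FPKM in controls, and its groups overlapped (difference -0.13, SE 0.109, limma BH-adjusted p 0.828). Rpgrip1, which anchors RPGR at the connecting cilium, stood at 232, 331 and 179 FPKM in null-labelled retinas, against 423, 250 and 223 FPKM in controls and had the largest SE of the group. Its null-labelled retina was below the control in pairs 1 and 3 and above it in pair 2, with differences of -0.87, -0.32 and 0.41 (mean difference -0.26, SE 0.293, limma BH-adjusted p 0.867), and without control retina 1 it was 0.021. Cep290, a gatekeeper of the transition zone, stood at 24.8, 25.8 and 18.0 FPKM in null-labelled retinas, against 31.6, 24.9 and 15.8 FPKM in controls (difference -0.036, SE 0.251, limma BH-adjusted p 0.992). Its sign turned under the same-total scaling (0.0049) and without null-labelled retina 3, control retina 1 or control retina 2, by up to 0.18. Ahi1, which encodes jouberin, had the smallest p of the group and stood at 34.8, 40.5 and 36.0 FPKM in null-labelled retinas, against 45.8, 38.2 and 41.6 FPKM in controls (difference -0.17, SE 0.102, limma BH-adjusted p 0.764), with overlap because control retina 2 was below null-labelled retina 2.

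Among the other transition zone members, Lca5, which encodes lebercilin, ranged from 16.5 to 21.4 FPKM in null-labelled retinas and from 22.3 to 22.5 FPKM in controls (difference -0.19, limma BH-adjusted p 0.768). Tmem67, a membrane protein of the Meckel syndrome complex, ranged from 7.49 to 8.40 FPKM in null-labelled retinas and from 6.76 to 7.40 FPKM in controls (difference 0.17, limma BH-adjusted p 0.764). Its partners Cc2d2a and Mks1 overlapped between groups, with Cc2d2a at 13.1 ± 2.31 FPKM in null-labelled retinas and 14.3 ± 3.03 FPKM in controls, while Mks1 averaged 10.6 ± 1.96 FPKM in null-labelled retinas and 12.3 ± 1.95 FPKM in controls. The nephrocystin gene Nphp4 averaged 8.85 ± 2.18 FPKM in null-labelled retinas and 9.12 ± 1.10 FPKM in controls, and Spata7, which holds the connecting cilium of photoreceptors together, 7.70 ± 0.3735 FPKM in null-labelled retinas and 7.39 ± 0.868 FPKM in controls. Iqcb1, which encodes nephrocystin-5, was named after its values were seen because 1 library stood apart. It was at 34.9 FPKM in null-labelled retina 3 and between 17.2 and 20.6 FPKM in the other 5, and it overlaps Eaf2 on the opposite strand. Rpgr, Rpgrip1, Cep290, Nphp4, Lca5, Ahi1 and Tmem67, and in the groups below Bbs4, Mkks, Bbs12, Arl6, Ift88 and Ift140, also overlap other annotated genes, and whether the counting used strand is not given in the sources used here.

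The 7 BBSome subunits differed little, with a median log2 difference of -0.013 and 6 of 7 lower. Bbs1, whose product contacts ARL6, stood at 15.7, 15.3 and 11.4 FPKM in null-labelled retinas, against 15.8, 17.15 and 9.90 FPKM in controls (difference 0.012, SE 0.218, limma BH-adjusted p 0.997), and its sign was negative without both libraries numbered 3 (-0.080). Bbs2 stood at 21.6, 26.5 and 19.7 FPKM in null-labelled retinas, against 27.65, 26.4 and 26.6 FPKM in controls. Null-labelled retinas 1 and 3 were below all controls and null-labelled retina 2 lay within their narrow range. The difference was -0.26 (SE 0.117, limma p 0.0638, and 0.0444 with the block), and the limma BH-adjusted p was 0.725 without and 0.402 with the block. Bbs9, the most abundant subunit by FPKM, stood at 41.0, 40.3 and 31.1 FPKM in null-labelled retinas, against 44.2, 49.9 and 32.5 FPKM in controls (difference -0.16, SE 0.178, limma BH-adjusted p 0.867). Bbs4, Bbs5, Bbs7 and Ttc8, the gene of BBS8, had null-labelled means at 95.1% to 98.9% of the control means.

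Mkks, Bbs10 and Bbs12 are chaperonin-like genes whose products help to assemble the BBSome, and Arl6 is the GTPase that brings it to the membrane. These 4 had log2 differences just above 0, between 0.0070 and 0.058. Their null-labelled FPKM means were at 99.1% to 101% of the control means. Arl6 stood at 99.1, 92.3 and 91.6 FPKM in null-labelled retinas, against 96.3, 112 and 76.2 FPKM in controls, with the null-labelled libraries inside the range of the controls. Bbs10 was the least abundant tested member, at 3.04, 2.73 and 3.28 FPKM in null-labelled retinas, against 3.76, 3.29 and 1.87 FPKM in controls, and control retina 3 lay below the other 5. The signs of both turned without both libraries numbered 3, to -0.12 and -0.25. Mkks averaged 10.8 ± 0.682 FPKM in null-labelled retinas and 10.9 ± 2.89 FPKM in controls, and Bbs12 9.43 ± 1.42 FPKM in null-labelled retinas and 9.47 ± 2.78 FPKM in controls. The limma BH-adjusted p of the 4 genes was between 0.978 and 0.997.

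In the pathway for lipidated cargo, UNC119 binds acylated proteins such as rod transducin, while ARL3 in its GTP form releases them and RP2 switches ARL3 off. Unc119 stood at 404, 430.1 and 337 FPKM in null-labelled retinas, against 537, 551 and 354 FPKM in controls. Null-labelled retinas 1 and 2 were below control retinas 1 and 2, and the retinas numbered 3 were nearly level and the lowest of their groups. The mean in null-labelled retinas was 81.3% of that in controls (difference -0.28, SE 0.193, limma BH-adjusted p 0.798, and 0.366 with the block). Arl3 stood at 68.5, 70.1 and 64.6 FPKM in null-labelled retinas, against 94.55, 85.0 and 66.7 FPKM in controls, and only control retina 3 lay within the range of the null-labelled group (difference -0.26, SE 0.133, limma BH-adjusted p 0.749, and 0.375 with the block). Rp2 went the other way, at 7.345, 5.59 and 6.12 FPKM in null-labelled retinas, against 4.21, 6.03 and 5.67 FPKM in controls, with the highest difference of all members, 0.25 (SE 0.164, limma BH-adjusted p 0.786). That value rested largely on pair 1, whose difference was 0.74 beside -0.10 and 0.10 in pairs 2 and 3.

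Ift172, a subunit of the IFT-B complex, had the smallest p of all members. It lies at chromosome 5, 31253277 to 31291116 (GRCm38, minus strand), with no overlapping gene in the annotation, and stood at 12.6, 14.3 and 11.4 FPKM in null-labelled retinas, against 18.75, 15.6 and 16.2 FPKM in controls. Each null-labelled retina was below each control. The means were 12.75 ± 1.47 FPKM in null-labelled retinas and 16.9 ± 1.66 FPKM in controls (SD, n = 3 each), so that the null-labelled mean was 75.6% of the control mean, and the difference was -0.39 (SE 0.119, limma p 0.0121, BH-adjusted 0.661, and 0.312 with the block). Under the 18 alternatives the difference stayed between -0.47 and -0.32, and the limma BH-adjusted p was between 0.306 and 1. Ift88, a core IFT-B protein needed to build cilia, stood at 12.1, 14.6 and 10.3 FPKM in null-labelled retinas, against 15.4, 11.7 and 13.4 FPKM in controls, with null-labelled retina 2 above control retina 2 and the other pairs the reverse (difference -0.13, SE 0.154, limma BH-adjusted p 0.869). Ift20, the IFT-B protein that also resides at the Golgi, was the most abundant of the group at 58.7, 59.9 and 59.2 FPKM in null-labelled retinas, against 64.8, 63.6 and 59.0 FPKM in controls. All libraries were close together, and the groups overlapped (difference -0.074, SE 0.0782, limma BH-adjusted p 0.856). Ift140, of the IFT-A complex for return transport, averaged 8.005 ± 0.463 FPKM in null-labelled retinas and 9.08 ± 1.97 FPKM in controls (SD, n = 3 each). Ift52, of the IFT-B core, averaged 17.9 ± 3.14 FPKM in null-labelled retinas and 17.0 ± 0.541 FPKM in controls (SD, n = 3 each).

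Of the kinesin motors, Kif3a, a motor subunit of the heterotrimeric kinesin-II that draws IFT trains, stood at 27.7, 23.7 and 24.0 FPKM in null-labelled retinas, against 22.0, 23.1 and 21.6 FPKM in controls. Each null-labelled library was above each control, with the highest control close to the lowest null-labelled library (difference 0.17, SE 0.0936, limma BH-adjusted p 0.749). Kif17, a homodimeric kinesin of photoreceptor and olfactory cilia, was not tested. It stood at 0.373, 0.672 and 0.394 FPKM in null-labelled retinas, against 0.248, 0.221 and 0.461 FPKM in controls. The groups overlapped, and the gene overlaps Sh2d5 in the annotation.

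Pair by pair, the members were lower in null-labelled retinas in pairs 1 and 2 and not in pair 3. The median difference of the 41 was -0.20 in pair 1 with 29 lower (70.7%, beside 52.7% of all rows), -0.12 in pair 2 with 30 lower (73.2%, beside 53.5%), and 0.10 in pair 3 with 17 lower (41.5%, beside 41.2%). Over all rows the medians were -0.018, -0.017 and 0.053. In both pairs 1 and 2, 20 members (48.8%) were lower, beside 30.5% of all rows. In all 3 pairs, 10 members (24.4%) were lower, beside 16.6%, and 2 (4.88%) were higher in all 3, beside 18.4%. All 4 disc genes were lower in pairs 1 and 2 and 3 of them were higher in pair 3, and the 4 BBSome assembly genes were lower in pair 2 and higher in pair 3. Connecting cilium genes had another arrangement, with medians of -0.20, 0.049 and -0.21. Rod markers showed the arrangement of the disc genes, with 13 of 13 lower in pairs 1 and 2 and 4 of 13 lower in pair 3, at medians of -0.51, -0.35 and 0.17. The summed FPKM of the 13 was 4056, 4224 and 2914 in null-labelled retinas, against 5203, 5567 and 2758 in controls. Their part in the values of the members was not tested.

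**Figure D3:**
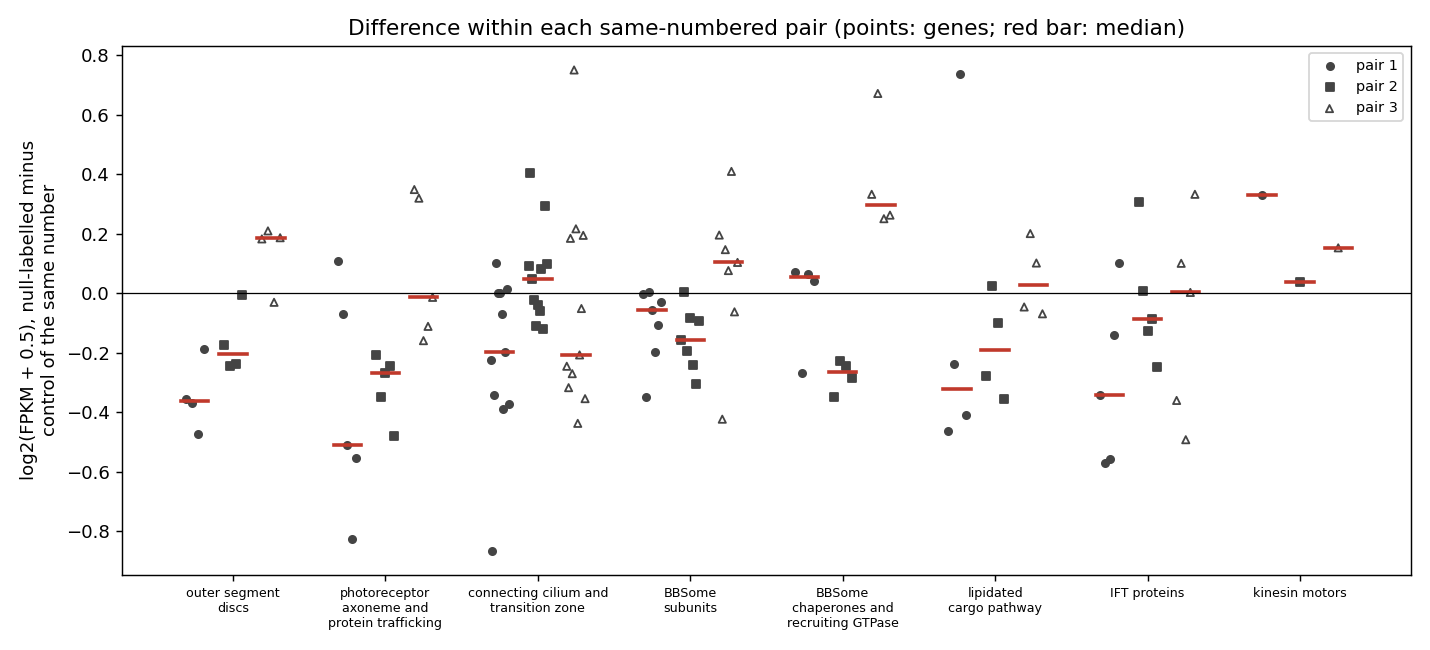
Difference in log2(FPKM + 0.5) between the null-labelled and the control library of the same number, one point per gene, by role and pair, with a red bar at the median. Disc genes lie at medians of -0.36, -0.20 and 0.19 in pairs 1, 2 and 3, so the sign of their difference turns in pair 3.

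Most members were lowest in the libraries numbered 3. In 26 of the 41 (63.4%) library 3 was below libraries 1 and 2 in both groups, beside 25.2% of all rows, and in 1 (Iqcb1, 2.44%) it was above in both, beside 25.9%. All of the 4 disc and the 5 axoneme and trafficking genes were among the 26, along with 6 of 7 BBSome subunits, 5 of 11 connecting cilium genes, 3 of 4 BBSome assembly genes and 3 of 4 lipidated cargo genes. None of the 5 IFT proteins was among them, nor was Kif3a. Rp1l1 had the lowest values, with library 3 at -0.90 in the null-labelled group and -1.43 in controls, relative to the mean of libraries 1 and 2. Disc genes had medians of -0.42 and -0.79, axoneme and trafficking genes with -0.54 and -0.96, and BBSome subunits with -0.35 and -0.50. The 5 IFT members stood at medians of -0.0031 and -0.077, close to the medians of all rows, 0.034 and -0.034. Related genes outside the members, listed below, did not all share this. Library 3 was below in both groups in 7 of 18 further IFT proteins and in 7 of 8 further cilium motors. Medians were -0.021 and -0.18 for these IFT proteins and -0.12 and -0.37 for these motors. In the further photoreceptor cilium and outer segment genes it was below in both groups in 11 of 12, at medians of -0.56 and -0.98. Of all 90 further genes tested, library 3 was below in both groups in 43 and above in both in 12. Rod markers were lower in the libraries numbered 3 as well, by medians of -0.78 and -1.41, and their part in this was not tested. The labels give no batch, age or stage by which the libraries numbered 3 would differ from the others. Each group holds 1 such library, so the difference has no replicate check within a group and no test is given.

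**Figure D4:**
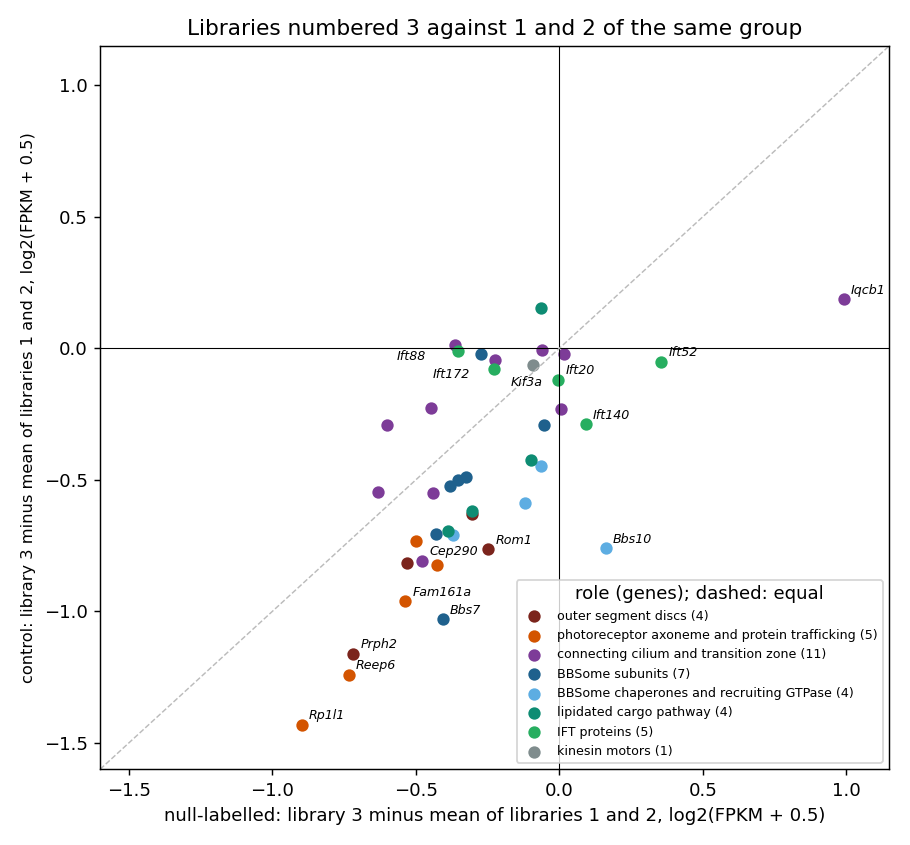
Library 3 minus the mean of libraries 1 and 2 in log2(FPKM + 0.5) for the 41 tested members, in the null-labelled group (horizontal) and in controls (vertical), coloured by role. Disc and axoneme genes lie at the lower left, with Rp1l1 at -0.90 and -1.43, while IFT genes lie near 0 on the vertical axis.

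Ratios between partner genes were taken within each library. FPKM of Prph2 relative to Rom1 was 0.814, 0.884 and 0.612 in null-labelled retinas, against 0.806, 0.842 and 0.624 in controls. Rp1 relative to Rp1l1 was 4.14, 4.21 and 5.88 in null-labelled retinas, against 3.65, 3.81 and 5.81 in controls. In both ratios the libraries numbered 3 stood apart and the groups overlapped. Ift88 relative to Ift172 was 0.960, 1.02 and 0.905 in null-labelled retinas, against 0.823, 0.750 and 0.824 in controls, without overlap. This ratio was chosen with the values of Ift172 known and was not tested.

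A further 101 genes of the same structures were listed, 96 were in the table and 90 were tested. None passed limma with BH adjustment with or without the block, and at an unadjusted p under 0.05 there were 2 higher and 1 lower, beside 4.09% and 2.72% of all rows, and 3 higher and 6 lower with the block, beside 6.96% and 5.21%. By sign 25 were higher and 65 lower, with a median of -0.065, beside 49.1% lower and a median of 0.0033 over all rows. In pairs 1, 2 and 3 there were 64, 62 and 35 lower. How this split depends on scaling or on single libraries was not examined for these genes. Guca1b, an activator of guanylate cyclase in the outer segment, stood at 4.22, 5.09 and 3.97 FPKM in null-labelled retinas, against 3.55, 3.07 and 1.25 FPKM in controls (difference 0.74, SE 0.305, limma BH-adjusted p 0.716), with each null-labelled library above each control. Lztfl1, which restrains BBSome entry into cilia, was at 25.2, 23.15 and 23.4 FPKM in null-labelled retinas, against 17.55, 23.1 and 17.0 FPKM in controls (difference 0.32, SE 0.129, limma BH-adjusted p 0.715), with control retina 2 level with null-labelled retina 2. Inpp5e, a ciliary lipid phosphatase delivered by the lipidated cargo pathway, was at 14.0, 13.6 and 13.8 FPKM in null-labelled retinas, against 17.3, 15.4 and 16.5 FPKM in controls (difference -0.24, SE 0.087, limma BH-adjusted p 0.693), without overlap. Those are the 3 with an unadjusted p under 0.05 in the fit on genotype alone.

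Sign counts of the separate lists stand beside 49.1% lower over all rows. Among the remaining 18 IFT proteins 13 were lower, with Wdr19 of IFT-A averaging 8.36 ± 1.11 FPKM in null-labelled retinas and 7.06 ± 0.441 FPKM in controls and Hspb11 of IFT-B 19.3 ± 2.60 FPKM in null-labelled retinas and 22.0 ± 0.615 FPKM in controls. Of 8 further cilium motor genes 4 were lower, with the dynein light chain Dynll1 at 131 ± 7.59 FPKM in null-labelled retinas and 147 ± 3.39 FPKM in controls and Dync2h1, the heavy chain of the dynein for return transport, at 5.02 ± 0.580 FPKM in null-labelled retinas and 4.17 ± 0.592 FPKM in controls. Of 23 transition zone and basal body genes 18 were lower, with B9d1 of the Meckel syndrome complex at 23.2 ± 2.85 FPKM in null-labelled retinas and 28.3 ± 3.27 FPKM in controls and Cep164 of the distal appendages at 5.97 ± 0.921 FPKM in null-labelled retinas and 7.24 ± 0.838 FPKM in controls. Ttll5, a tubulin glutamylase that modifies RPGR, averaged 6.45 ± 0.672 FPKM in null-labelled retinas and 7.40 ± 1.11 FPKM in controls. In the Usher protein list Clrn1 averaged 7.54 ± 0.441 FPKM in null-labelled retinas and 6.00 ± 0.987 FPKM in controls and Whrn 18.8 ± 3.35 FPKM in null-labelled retinas and 21.2 ± 2.40 FPKM in controls. Among regulators, Otx2 averaged 369 ± 31.7 FPKM in null-labelled retinas and 439 ± 55.5 FPKM in controls and Rfx1, a regulator of ciliary genes, 15.6 ± 2.99 FPKM in null-labelled retinas and 18.4 ± 3.21 FPKM in controls. The limma BH-adjusted p of these 11 genes was between 0.725 and 0.824.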

How the data were processed

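RNA-seq libraries were built with the TruSeq kit and read as paired ends. The authors mapped reads with TopHat2 and estimated FPKM with Cufflinks on GRCm38, per the submitters' processing notes, and deposited FPKM per gene. Versions, annotation and strand use were not given in the sources used here. Whole reads could not be recovered from low values, so no count test was run and counting error is not given.

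Rows averaging 0.5 FPKM or more were fitted with limma 3.58.1 in R 4.3.3 (mean-variance trend, genotype only) on log2(FPKM + 0.5), two-sided, with BH adjustment over 13175 rows. The script was checked on simulated data with independent noise for each library. That check had no shift shared by same-numbered libraries and no changes as small as those of the members, so it does not cover these settings. Rp1 has a repeated name, and its row with the highest mean was used. Positions are from GENCODE M21 on GRCm38, and promoter windows are from RefSeq on GRCm38.p6.

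After removal of group means, same-numbered libraries correlated at 0.394, 0.260 and 0.675, each over 0.1, the mark used for adding a fit with a replicate block. This check cannot tell pairs 1 and 2 apart, because library 3 stood apart in both groups and deviations within a group cancel out. Null-labelled 1 correlated at 0.269 with control 2. Null-labelled 2 correlated more with control 1 (0.377) than with control 2 (0.260). By this check, pairs 1 and 2 therefore rest on the numbers in the labels alone. Same-numbered libraries also matched in the Y-linked gene Ddx3y, at 19.2 and 21.65 FPKM in pair 1 and near 0 in pair 2. Whether this match reflects a pairing was not tested.

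Values per library are given for members with an unadjusted p under 0.05 in either fit, for the highest mean and smallest p in each role, and for 12 members fixed by name, and other members by means or ranges. Rp1l1, Grik1, Arr3 and Opn1sw were added after their values were seen. The 2 genes with the smallest p in each further pathway list are named. Of the genes these rules name or the members they cover, 2 are not reported here by name, though counts and medians include them. Members, lists and rules were chosen with earlier results of these data known. Other settings were a pseudocount of 0.1 or 1, a filter at 2 FPKM or none, equal 75th percentile, equal total, quantile normalization, no trend, array weights, the block and libraries left out.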

Additional observations from a re-analysis of the deposited data

How the results depend on the processing

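No member was called under any of the 18 alternatives, with a smallest limma BH-adjusted p between 0.240 and 1, and 1 to 10 members had an unadjusted p under 0.05. With the replicate block 12 of all rows were called in place of 2, without both libraries numbered 3 there were 5, and with the block and without those libraries, a fit added after seeing the data, there were 0 (8 members at an unadjusted p under 0.05). Leaving out 1 library at a time gave 0 to 3 called rows, with 0 without null-labelled retina 2 and 1 without control retina 2, and medians of the members between -0.22 and 0.026. The block changed no call among the members. The Lhx4 difference stayed between 0.54 and 0.63.

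Of the 41 tested members, the sign turned in 9 with array weights, in 10 without both libraries numbered 3, and in 8, 6 and 5 at equal totals, equal 75th percentile and quantile normalization. Among the members given by library under the naming rule, these were Arl6, Bbs1, Bbs10 and Rp1 with array weights (-0.087, -0.053, -0.12 and -0.0094) and without both libraries numbered 3, with or without the block (Arl6 -0.12, Bbs1 -0.080, Bbs10 -0.25, Rp1 -0.050), and Cep290 turned to 0.0049 at equal totals. Without null-labelled retinas 1, 2 and 3 in turn, the sign turned in 6, 3 and 13 members. Without control retinas 1, 2 and 3 in turn, it turned in 12, 9 and 7. With 1 library left out, ranges were -0.14 to 0.14 for Arl6, -0.22 to 0.16 for Bbs1, -0.20 to 0.23 for Bbs10, -0.31 to 0.18 for Cep290, -0.50 to 0.12 for Prph2, -0.39 to 0.033 for Rom1, -0.19 to 0.27 for Rp1 and -0.49 to 0.021 for Rpgrip1. The cause was not tested. The study states sequencing depth only as a range over libraries and not for each, so how far it limits low members such as Bbs10 cannot be stated.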
